A study of Mus musculus with 15 samples.

Results

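The TRPM channels are the melastatin branch of the transient receptor potential (TRP) family of cation channels, and their expression was described here in sorted alpha, beta and delta cells of the mouse islet. The members were the 8 genes of the deposited table named Trpm1 to Trpm8, which holds 38283 genes. Levels were given as FPKM, in which the fragments of a gene are divided by its transcript length and by the mapped depth of the sample, so that genes of different length may be set side by side.

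RNA was sequenced from 15 samples of sorted cells, of which 5 were alpha cells, 4 beta cells and 6 delta cells. Alpha cells were the fluorescent cells of Glu-Venus mice, in which the proglucagon promoter drives the yellow protein Venus. Beta cells were taken from the same mouse line as Venus-negative cells of high scatter and high background fluorescence. Delta cells came from another line, Sst-CreXROSA26EYFP/EYFP, in which Cre under the somatostatin promoter switches on EYFP in the Rosa26 locus, so that cell type and mouse line cannot be told apart in any comparison with delta cells. The mice were C57BL/6, no treatment was given, and their age was not given in the sources used here. Each sample held islets pooled from several mice.

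TRPM channels are tetramers that let cations into the cell or out of intracellular stores, and most are opened by a chemical or thermal signal rather than by voltage alone. TRPM4 and TRPM5 are opened by intracellular calcium and carry sodium and potassium but hardly any calcium, so that they depolarise the membrane. TRPM3 is opened by the neurosteroid pregnenolone sulphate and by heat, TRPM2 by ADP-ribose and oxidative stress, and TRPM8 by cold and menthol. TRPM6 and TRPM7 are channels fused to a protein kinase and pass magnesium, calcium and zinc. TRPM1 is the transduction channel of retinal ON bipolar cells and is also found in melanocytes. In beta cells, depolarising currents of this kind act together with closure of ATP-sensitive potassium channels to bring the cell to the threshold for calcium entry and insulin release.

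The sorted populations carried the hormones of their labels. The mean Gcg level was 273077 FPKM in alpha cells and at most 0.233% of that in the others, the mean Ins2 level was 295241 FPKM in beta cells and at most 1.95% of that in the others, and the mean Sst level was 163268 FPKM in delta cells and at most 0.992% of that in the others. Pancreatic polypeptide (Ppy) was high in both alpha samples (17728 to 41392 FPKM) and delta samples (10857 to 48600 FPKM) and low in beta samples (16.9 to 98.1 FPKM). The summed level of 82 ribosomal protein genes separated the samples into a high set of 6 (alpha 1 to 3, beta 2 and delta 1 and 2, 63220 to 134819 FPKM) and a low set of 9 (7848 to 37173 FPKM), and values within these sets are given beside the results they touch.

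Sequence is shown first for the members whose levels differed most between cell types, Trpm5 and Trpm3, as the 250 bases just upstream of each transcription start that RefSeq lists on GRCm38.p6. Capitals mark the homeodomain core TAAT (either strand) and the E-box CANNTG, motifs bound by large families of islet and neuronal transcription factors, and no match overlapped another. The Trpm5 window lies at chr7:143094643-143094892 on the minus strand and the Trpm3 windows at chr19:22138796-22139045 and chr19:22447958-22448207 on the plus strand.
Trpm5: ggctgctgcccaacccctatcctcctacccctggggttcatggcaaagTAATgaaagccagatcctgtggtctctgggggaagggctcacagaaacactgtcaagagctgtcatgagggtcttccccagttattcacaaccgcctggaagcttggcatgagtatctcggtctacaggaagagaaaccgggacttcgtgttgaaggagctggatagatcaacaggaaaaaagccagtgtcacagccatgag
Trpm3 first start: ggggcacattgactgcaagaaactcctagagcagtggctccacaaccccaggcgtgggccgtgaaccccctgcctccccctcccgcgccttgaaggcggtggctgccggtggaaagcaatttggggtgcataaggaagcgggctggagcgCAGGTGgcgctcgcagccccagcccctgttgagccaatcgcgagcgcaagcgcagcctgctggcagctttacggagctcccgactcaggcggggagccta
Trpm3 second start: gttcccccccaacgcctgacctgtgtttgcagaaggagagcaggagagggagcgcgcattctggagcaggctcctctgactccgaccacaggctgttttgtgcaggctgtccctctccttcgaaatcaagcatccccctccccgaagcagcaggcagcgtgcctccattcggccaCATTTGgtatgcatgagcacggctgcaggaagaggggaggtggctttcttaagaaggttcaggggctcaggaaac
The Trpm5 window held 1 TAAT and no CANNTG, and each Trpm3 window held 1 CANNTG and no TAAT. Among all 32851 RefSeq promoter windows of the same length, 54.9% held TAAT and 66.2% held CANNTG, so that these matches are common. The 3 windows differed in base composition, with a GC content of 52.8% for Trpm5 and 66.4% and 59.2% for the Trpm3 starts.

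Trpm5 was the member that marked beta cells. The gene lies at chr7:143069153-143094642 on the minus strand (GRCm38), its longest coding transcript has 25 exons, and the channel it encodes is best known from taste and intestinal tuft cells. In the 4 beta samples its level was 45.4, 135, 19.1 and 32.4 FPKM. In the 5 alpha samples it was 0.360, 1.51, 0.728, 0.103 and 0.365 FPKM, and in the 6 delta samples it ran from 0.937 to 1.53 FPKM with a median of 1.16. No alpha or delta sample came near the lowest beta sample, so that the beta samples overlapped with neither group.

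The mean Trpm5 level was 58.0 ± 52.5 FPKM over the 4 beta samples (SD), 0.614 ± 0.549 over the 5 alpha samples and 1.19 ± 0.201 over the 6 delta samples, which placed it at rank 1035 of the table in beta cells by mean level. Beta cells exceeded alpha cells 94.5-fold and delta cells 48.8-fold in the ratio of means, and these folds rested in part on single samples. In a check chosen after seeing the data, they were 52.6-fold and 27.2-fold without beta 2, and the first was 149.1-fold without alpha 2. On the scale of log2(FPKM + 1), which understates folds of low genes, beta cells were higher than alpha cells by 4.87 (SE 0.432, limma adjusted p = 2.52e-06), and delta cells fell by 4.38 relative to beta cells (SE 0.416, limma adjusted p = 3.22e-06). Adjusted p-values were taken over all 14405 genes with a mean above 1 FPKM in at least 1 cell type. At an adjusted p under 0.05, 2.84% of these genes were called for a higher level in beta cells against alpha cells and 4.82% for a lower level, and 2.99% were called for a lower level in delta cells against beta cells. In such bulk samples, fewer cells of a type and less RNA per cell cannot be told apart.

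**Figure D1:**
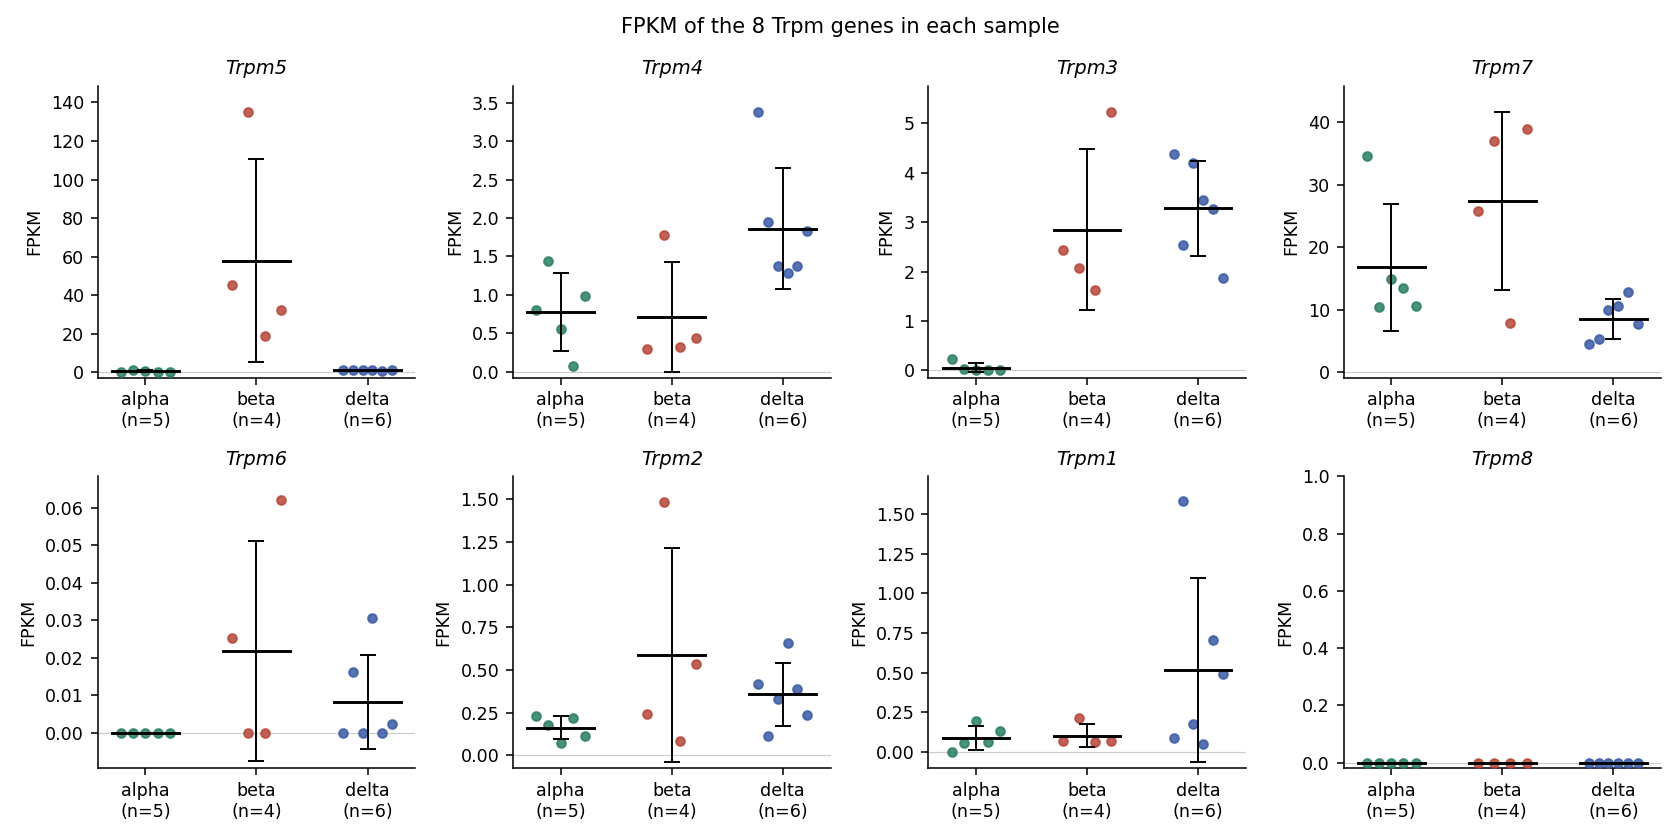
FPKM of the 8 Trpm genes in each of the 15 samples, grouped by cell type on the horizontal axis (each vertical axis has its own scale). Points are samples, thick lines the mean and bars the SD. Trpm5 lies between 19.1 and 135 FPKM in beta samples and at or below 1.53 FPKM in all others, Trpm3 is near 0 in alpha samples only, and Trpm8 is at 0 throughout.

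The spread of Trpm5 among beta samples was wide and was led by beta 2, which is also the only beta sample of the high ribosomal protein set. Among samples of the low set, the mean Trpm5 level was 32.3 FPKM in 3 beta samples, 0.234 FPKM in 2 alpha samples and 1.17 FPKM in 4 delta samples, and the groups again did not overlap. Leaving out any sample in turn kept the beta to alpha difference between 4.35 and 5.27 and the delta to beta difference between -4.77 and -3.85 on the log2 scale, all past the threshold. A fit of alpha and beta replicates 1 to 4 with the replicate number as a block (replicate block) gave 4.83 with a limma adjusted p of 0.0734, in a fit in which 0 genes of the table were called.

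The low Trpm5 level in alpha and delta samples was of the same order, relative to beta cells, as that of other beta cell genes. Trpm5 stood at 1.06% of the beta cell mean in alpha cells and at 2.05% in delta cells. The insulin genes stood at 2.52% and 2.08% (Ins1) and at 1.87% and 1.95% (Ins2), the secreted peptide gene Ucn3 at 0.907% and 1.23%, the glucose transporter gene Slc2a2 at 0.779% and 1.07%, and the insulin gene activator Mafa at 3.06% and 4.08%. By these means Trpm5 lay within the range of these 5 beta cell markers in both cell types. Without beta 2, left out after seeing the data, Trpm5 stood at 1.90% and 3.68%, and the markers were not recomputed. Alpha 2, with the highest Trpm5 level of the alpha samples (1.51 FPKM), had their lowest Ins1, Ins2 and Ucn3 levels (1033, 2634 and 1.08 FPKM). It had their highest Slc2a2 level (2.98 FPKM), and Mafa was at 0 there. Whether Trpm5 RNA in alpha and delta samples came from beta cells was not tested. Between delta and alpha cells the Trpm5 difference of 0.49 on the log2 scale (SE 0.390) did not pass the test over all genes (limma adjusted p = 0.605), although the unadjusted exact permutation test gave p = 0.0390 (two-sided).

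**Figure D2:**
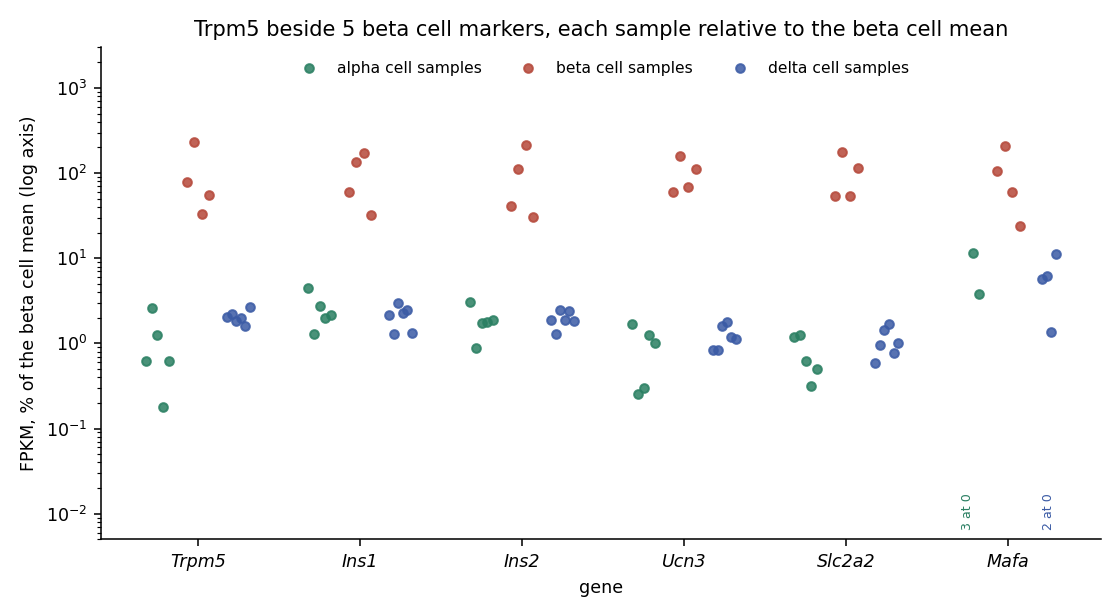
Level of Trpm5 and of 5 beta cell markers in each sample as a percentage of the gene's mean over the 4 beta samples (log axis). Points are samples, coloured by cell type, and values of 0 are written as counts at the foot of the axis. Mean Trpm5 in alpha (1.06%) and delta samples (2.05%) lies within the range of the 5 markers.

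The annotation places the end of Trpm5 across the protein-coding gene Tssc4 on the opposite strand, and the sources used here do not say whether counting used strand. Tssc4 did not follow Trpm5, with 11.3 ± 8.16 FPKM in the 5 alpha samples (mean ± SD), 11.4 ± 6.66 in the 4 beta samples and 15.2 ± 4.31 in the 6 delta samples.

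Trpm4, the other calcium-activated member and the one usually found across many tissues, was low in all 3 cell types and did not share the beta cell pattern of Trpm5. It lies at chr7:45302632-45333780 on the minus strand. Its level was 0.801, 1.44, 0.552, 0.0779 and 0.979 FPKM in alpha samples, 0.290, 1.78, 0.320 and 0.437 FPKM in beta samples, and 1.28 to 3.38 FPKM with a median of 1.60 in delta samples. Delta samples tended to the high end, but the highest alpha and beta samples reached into their range. The mean was 0.771 ± 0.506 FPKM in alpha (SD, n = 5), 0.706 ± 0.717 in beta (SD, n = 4) and 1.86 ± 0.792 in delta cells (SD, n = 6).

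None of the Trpm4 differences passed the test over all genes. Delta exceeded alpha cells by 0.70 on the log2 scale (SE 0.299, limma adjusted p = 0.224) and beta cells by 0.79 (SE 0.318, limma adjusted p = 0.114), with unadjusted exact permutation p-values of 0.0173 and 0.0381. Beta and alpha cells differed by -0.08 (SE 0.331, limma adjusted p = 0.929), a value without a stable direction, which ran from -0.34 without beta 2 to 0.05 without alpha 2 and was 0.13 with the ribosomal protein set as a covariate. The delta to beta result turned on beta 2, the beta sample of highest Trpm4 level: without it the delta to beta difference was 1.05 with a limma adjusted p of 0.0245. With the ribosomal protein set as a covariate the delta to alpha difference was 0.86 (limma adjusted p = 0.0479). Quantile normalization lowered the delta to alpha difference to 0.33 (limma adjusted p = 0.556) and the delta to beta difference to 0.35 (0.450).

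Within samples, the 2 calcium-activated channels were balanced differently. Trpm4 exceeded Trpm5 in 6 of 6 delta samples, in 2 of 5 alpha samples and in 0 of 4 beta samples. Trpm5 made up 61.1% ± 14.4 of the summed Trpm FPKM in beta cells (SD, n = 4) and Trpm4 0.764% ± 0.342. In delta cells they made up 7.88% ± 2.40 for Trpm5 and 12.5% ± 6.61 for Trpm4 (SD, n = 6). In alpha cells they were close, at 4.04% ± 4.21 and 4.94% ± 4.18 (SD, n = 5).

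Trpm3, the steroid and heat-gated member, was shared by beta and delta cells and nearly missing from alpha cells. The gene spans 856365 bases at chr19:22139046-22995410 on the plus strand, the longest span among the members. The 4 beta samples gave 2.43, 2.08, 1.63 and 5.24 FPKM, and the 6 delta samples 1.87 to 4.39 FPKM with a median of 3.35. The 5 alpha samples gave 0.222, 0.0384, 0, 0 and 0.0183 FPKM. All beta and delta samples lay above all alpha samples, while beta and delta samples overlapped.

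The mean Trpm3 level was 0.0558 ± 0.0944 FPKM in alpha (SD, n = 5), 2.84 ± 1.63 in beta (SD, n = 4) and 3.28 ± 0.962 in delta cells (SD, n = 6). Beta cells were higher than alpha cells by 1.79 on the log2 scale (SE 0.298, limma adjusted p = 0.00122) and delta cells by 1.99 (SE 0.269, limma adjusted p = 0.000134). In delta cells against alpha cells, 5.33% of all genes tested were called for a higher level and 1.48% for a lower one. Samples did not overlap in 8.12% of genes between beta and alpha cells, in 6.64% between delta and alpha cells and in 14.9% between delta and beta cells. Delta and beta cells differed by 0.21 (SE 0.287, limma adjusted p = 0.686), so that a difference between them was not detected at this spread. Its direction turned with scaling, to -0.13 with size factors and -0.28 with quantile normalization, and it ranged from 0.05 to 0.47 with a sample left out.

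Unlike the markers of either cell type, Trpm3 had levels of the same order in both. The beta cell mean of Trpm3 was 86.6% of the delta cell mean, whereas Sst and Hhex, a transcription factor of delta cells, stood in beta cells at 0.101% and 0.155% of their delta cell means. In alpha cells Trpm3 stood at 1.70% of the delta cell mean, or at 0.432% without alpha 1 (left out after seeing the data), beside 0.992% for Sst, 0.991% for Hhex and 45.9% for the third delta cell marker, the retinol carrier gene Rbp4. Rbp4 stood at 0.330% of its delta cell mean in beta cells and was not called between delta and alpha cells (limma adjusted p = 0.378). Leaving out each sample in turn kept the beta to alpha difference between 1.52 and 1.94 and the delta to alpha difference between 1.92 and 2.10, all past the threshold. In the low ribosomal protein set the mean was 0.00914 FPKM in 2 alpha samples, 3.10 in 3 beta samples and 3.19 in 4 delta samples. The fit of alpha and beta replicates 1 to 4 with a replicate block gave 1.77 with a limma adjusted p of 0.101.

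Trpm3 and Trpm1 each carry a microRNA gene in an intron on their own strand, Mir204 and Mir211. The mature 5p products are shown because they differ at 1 base and have the same seed (bases 2 to 8, in capitals), in RefSeq's sequence.
mmu-miR-204-5p, chr19:22750610-22750631: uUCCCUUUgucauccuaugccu
mmu-miR-211-5p, chr7:64205831-64205852: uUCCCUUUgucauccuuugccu
Counted from the 5′ end, the substitution from miR-211-5p to miR-204-5p is U17A. Both microRNA genes were listed at 0 FPKM in all 15 samples, in libraries of fragments of about 200 bases that are not made to capture RNA of 22 bases, so that the table gives no measure of these microRNAs beside their host genes.

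Trpm7, the widely expressed channel-kinase, was the most abundant member in alpha and delta cells and the only member above 4 FPKM in every sample. It lies at chr2:126791565-126876230 on the minus strand. The alpha samples gave 34.5, 10.4, 14.8, 13.5 and 10.7 FPKM, the beta samples 25.8, 36.9, 7.92 and 38.9 FPKM, and the delta samples 4.56 to 12.8 FPKM with a median of 8.83. Delta samples lay toward the low end and the beta samples other than beta 3 toward the high end, with overlap between all 3 groups.

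The mean Trpm7 level was 16.8 ± 10.1 FPKM in alpha (SD, n = 5), 27.4 ± 14.2 in beta (SD, n = 4) and 8.48 ± 3.20 in delta cells (SD, n = 6). Delta cells fell by 1.45 on the log2 scale relative to beta cells (SE 0.464, limma adjusted p = 0.0470), just past the threshold. Relative to alpha cells the delta difference was -0.84 (SE 0.435, limma adjusted p = 0.365), and beta and alpha cells differed by 0.61 (SE 0.482, limma adjusted p = 0.480), or by 1.09 without beta 3 and 0.37 without beta 4. The call between delta and beta cells was lost when any of 12 of the 15 samples was left out, with limma adjusted p-values between 0.0507 and 0.151 in those fits, and was kept without alpha 1, beta 3 or delta 5. It was also lost with a replicate block (limma adjusted p = 0.111), with no filter on low genes (0.0633) and in a fit of those cell types alone (0.0599). It was kept with size factors (-1.82, limma adjusted p = 0.00540), quantile normalization (-1.65, 0.00935), a pseudocount of 0.1 (-1.54, 0.0465) and a filter at 5 FPKM (-1.45, 0.0466).

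Trpm7 in delta cells moved with the ribosomal protein set. With that set as a covariate the delta to beta difference was -1.45 (limma adjusted p = 0.0374), as in the fit without it. Within the sets, with no test, it was -2.68 in the high set, which holds 1 beta sample, and -0.93 in the low set, and the delta to alpha difference was -1.65 in the high and -0.23 in the low set. The 2 delta samples of the high set had a mean of 4.93 FPKM and the 4 of the low set a mean of 10.2 FPKM. Within the low set the mean was 12.1 FPKM in 2 alpha samples and 24.2 FPKM in 3 beta samples.

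**Figure D3:**
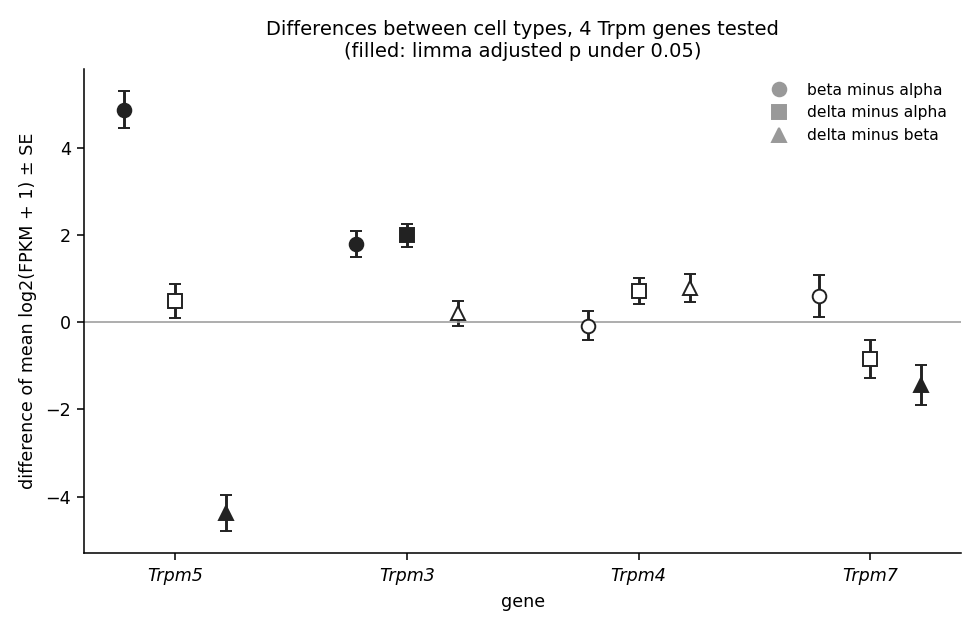
Differences between cell types in mean log2(FPKM + 1) for the 4 Trpm genes above the filter on low genes. Symbols mark the comparison, bars the SE of the limma fit, and filled symbols an adjusted p under 0.05. Trpm5 differs by 4.87 between beta and alpha cells, Trpm3 by 1.79 and 1.99 against alpha cells, and Trpm7 by -1.45 between delta and beta cells.

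Trpm6, the second channel-kinase, known from magnesium uptake in the kidney and gut, was at or near 0. The gene lies at chr19:18749983-18892511 on the plus strand. It was at 0 in all 5 alpha samples, at 0.0252, 0, 0 and 0.0621 FPKM in beta samples, and above 0 in 3 of 6 delta samples, none of which exceeded 0.0305 FPKM. The sum of the channel-kinases was thus carried by Trpm7 in all 15 samples. With no filter, the limma adjusted p-values of the Trpm6 differences were 0.469 for beta and alpha, 0.821 for delta and alpha, and 0.605 for delta and beta cells.

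Trpm2, the ADP-ribose-gated member, which also carries an ADP-ribose-binding domain related to the Nudix hydrolases, was detected in every sample but stayed below 1 FPKM in all but 1. It lies at chr10:77907722-77970563 on the minus strand. The alpha samples gave 0.230, 0.175, 0.0689, 0.219 and 0.113 FPKM, the beta samples 0.243, 1.49, 0.0804 and 0.533 FPKM, and the delta samples 0.112 to 0.660 FPKM with a median of 0.359. The mean was 0.161 ± 0.0690 FPKM in alpha (SD, n = 5), 0.586 ± 0.628 in beta (SD, n = 4) and 0.357 ± 0.185 in delta cells (SD, n = 6).

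The groups of Trpm2 overlapped in each comparison and the beta cell mean was led by beta 2. The unadjusted exact permutation test between delta and alpha cells gave p = 0.0390 (two-sided), but the fit over all 23792 genes above 0 gave a limma adjusted p of 0.644. The other pairs had exact permutation p-values of 0.159 (beta and alpha) and 0.552 (delta and beta). In all, 21 such exact tests were computed for the members, and the group sizes allow a smallest p of 0.0159, 0.00433 and 0.00952 for beta and alpha, delta and alpha, and delta and beta cells.

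Trpm1 was low in most samples and uneven among delta samples. The gene lies at chr7:64153835-64269775 on the plus strand. Delta 2, 5 and 6 had 1.58, 0.709 and 0.491 FPKM, whereas delta 1, 3 and 4 had 0.0866, 0.173 and 0.0524 FPKM, within the range of the alpha samples (0 to 0.194 FPKM). The beta samples ran from 0.0614 to 0.212 FPKM. The delta mean of 0.515 ± 0.581 FPKM (SD, n = 6) therefore stands for samples of very different level. The exact permutation test gave p = 0.0909 between delta and alpha cells and p = 0.181 between delta and beta cells (two-sided).

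Trpm8, the cold and menthol receptor of sensory neurons, was at 0 in all 15 samples. The gene lies at chr1:88277661-88389293 on the plus strand. In the 4 samples whose low values showed steps of whole reads, 3 reads of its longest coding transcript would be worth 0.0251 to 0.10 FPKM, the upper limit that a count of 0 allows there. This limit covers counting error only.

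Set side by side within each sample, the members gave each cell type its own order. In alpha cells Trpm7 made up 89.2% ± 8.18 of the summed Trpm FPKM (SD, n = 5). In beta cells Trpm5 led with 61.1%, followed by Trpm7 with 33.2% ± 12.6 and Trpm3 with 4.20% ± 2.48 (SD, n = 4). In delta cells Trpm7 made up 52.7% ± 12.8, Trpm3 21.0% ± 6.22 and Trpm4 12.5% (SD, n = 6). Trpm5 exceeded Trpm7 in 3 of 4 beta samples, with beta 4 as the exception, and in no alpha or delta sample.

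The summed Trpm level (mean ± SD) was 18.5 ± 9.98 FPKM in the 5 alpha samples, 89.6 ± 62.6 in the 4 beta samples and 15.7 ± 2.60 in the 6 delta samples. Alpha and delta samples overlapped in this sum, and the lowest beta sample (29.1 FPKM) lay within the range of the alpha samples (12.3 to 36.1 FPKM). Shares sum to the whole within a sample, so that a high Trpm5 share lowers all others in beta cells.

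**Figure D4:**
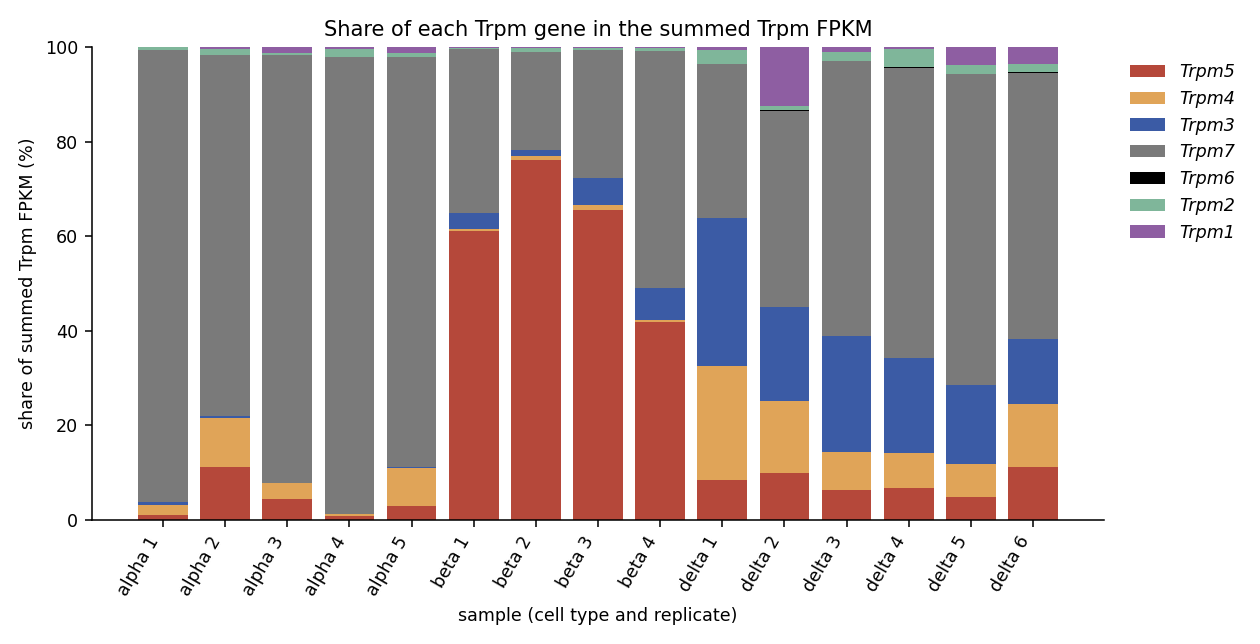
Share of each Trpm gene in the summed Trpm FPKM of each sample, in percent (Trpm8, at 0, is left out). Bars are the 15 samples by cell type and replicate. Trpm7 takes 76.4 to 96.7% in alpha samples, Trpm5 41.8 to 76.1% in beta samples, and delta samples hold Trpm7, Trpm3 and Trpm4.

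An F-test across the 3 cell types, which called 16% of the genes tested, gave limma adjusted p-values of 1.38e-06 for Trpm5, 0.000139 for Trpm3, 0.0914 for Trpm7 and 0.137 for Trpm4. Thus 2 of the 4 members above the filter passed. The other 4 members, Trpm1, Trpm2, Trpm6 and Trpm8, were below the filter and entered no such test.

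The genes whose log2(FPKM + 1) followed each tested member most closely over the 15 samples were taken by Pearson correlation among all genes tested. For Trpm5 they were the potassium channel subunit gene Kcng3 (Pearson r = 0.983), Emid1 (0.981) and Slc2a2 (0.977). For Trpm3 they were the secreted Wnt antagonist gene Frzb (0.947), the actin-bundling villin gene Vil1 (0.945) and the neuronal calcium-binding protein gene Cabp1 (0.943). Frzb was at 57.0 FPKM in beta, 74.2 in delta and 1.22 in alpha cells, the same order as Trpm3.

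For Trpm4 the closest genes were Mfsd6l (0.927), Fkbp14 (0.920) and Fbxl15 (0.919), each highest in delta cells. For Trpm7 they were 4933411K20Rik (0.912), Gm14403 (0.881) and the myosin gene Myo9a (0.874), each highest in beta cells. These correlations describe 15 samples that fall into 3 groups, carry no test, and were picked as the highest among all genes tested. Among the 6 pairs of members, r was 0.542 for Trpm5 with Trpm7, 0.385 for Trpm5 with Trpm3, 0.377 for Trpm3 with Trpm4, -0.08 for Trpm3 with Trpm7, -0.18 for Trpm4 with Trpm5 and -0.47 for Trpm4 with Trpm7.

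The other branches of the TRP family were examined as a list of 20 genes, of which 8 passed the filter and 5 were at 0 in every sample. Against alpha cells, 1 rose in beta cells and 2 in delta cells, with a median log2 difference of the 8 of 0.48 and 0.76 beside -0.13 and 0.13 over all genes tested, of which 2.84% and 5.33% were called higher. Between delta and beta cells 2 were higher and 1 was lower, with a median of 0.21 beside 0.30, and 11.7% of all genes tested were called higher and 2.99% lower there. Trpa1, the receptor for mustard oil and other irritants, was a delta cell gene, at 2.38 to 6.42 FPKM with a median of 5.18 in delta samples and at or below 0.147 FPKM in all alpha and beta samples. Its delta differences were 2.41 on the log2 scale against both alpha and beta cells (limma adjusted p = 7.71e-06 and 1.26e-05).

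Trpc5, a receptor-operated channel of neurons, was at 0.0361 to 2.08 FPKM with a median of 1.26 in delta samples and at or below 0.0513 FPKM in the others, with delta 2 at their level. Its delta differences were 1.08 against alpha cells (limma adjusted p = 0.0251) and 1.09 against beta cells (0.0216), calls that were lost with a replicate block and under quantile normalization. Mcoln3, a channel of endosomes and lysosomes, was the only gene of the list called for a higher level in beta cells. It was at 2.35, 5.38, 0.796 and 0.947 FPKM in beta samples and at or below 0.0788 FPKM in all others. Against alpha cells its beta level was higher by 1.55 (limma adjusted p = 0.00889), and in delta relative to beta cells it fell by 1.53 (0.00425). Trpc4 also had its highest mean in beta cells (1.49 FPKM, against 0.0938 in alpha and 0.134 in delta cells). It was not called against alpha cells (limma adjusted p = 0.121) or between delta and beta cells (0.0940). Trpa1 and Mcoln3 in both comparisons remained called without any single sample.

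Most genes of the signalling chain that opens TRPM5 in taste and tuft cells were below the filter on low genes. Of 9 listed, 2 passed it, and the phospholipase gene Plcb2 and the release channel gene Calhm1 were at 0 in every sample. With 2 genes tested, their counts are given as values only: 0 were called between beta and alpha cells, 1 between delta and alpha cells and 1 between delta and beta cells, both higher in delta cells, where 5.33% and 11.7% of all genes tested were called higher. Between beta and alpha cells 2.84% of all genes tested were called higher and 4.82% lower. Gnat3, the G protein alpha subunit gustducin, was at 0 in all 4 beta samples and at 0.716 to 7.94 FPKM with a median of 2.12 in delta samples, a difference of 1.72 (limma adjusted p = 0.0189). Itpr3, a calcium release channel of the endoplasmic reticulum, was higher in delta cells (4.12 ± 2.01 FPKM, SD, n = 6) than in alpha cells (1.06 ± 0.874, SD, n = 5) by 1.30 (limma adjusted p = 0.0357), a call lost without any of 7 samples (alpha 1, 2 or 3, or delta 3, 4, 5 or 6). The Itpr3 call was also lost with no filter, size factors, quantile normalization, a replicate block and a fit of those cell types alone. Of 6 tuft cell genes, Pou2f3, Gfi1b, Il25 and Chat were at 0 in all 15 samples and Avil did not exceed 0.292 FPKM. Dclk1 was at 0.558 to 3.37 FPKM in delta, 0.237 to 1.35 in alpha and 0.0435 to 0.249 in beta samples, and was higher in delta cells relative to beta cells by 1.31 (limma adjusted p = 0.0113).

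Of 8 genes that make or degrade ADP-ribose, 6 passed the filter, and 0, 1 and 2 were called higher between beta and alpha, delta and alpha, and delta and beta cells, with none lower. The shares called higher over all genes tested were 2.84%, 5.33% and 11.7%. The medians of the 6 log2 differences were 0.04, 0.21 and -0.02, beside -0.13, 0.13 and 0.30 over all genes tested. Nudt9, an ADP-ribose hydrolase of mitochondria, was at 4.37 to 7.35 FPKM with a median of 6.60 in delta samples. It was higher there by 1.12 than in alpha cells (limma adjusted p = 0.0240) and by 1.09 than in beta cells (0.0245), the first call lost without alpha 3, alpha 4 or delta 3 and the second without beta 1, 3 or 4. Adprhl2, which removes ADP-ribose from proteins, differed by 1.22 between delta and beta cells, with the higher level in delta cells (limma adjusted p = 0.0293), a call lost without beta 1, 3 or 4 or delta 1, 2 or 3. Cd38, which makes cyclic ADP-ribose and ADP-ribose from NAD, did not exceed 0.508 FPKM in any sample, and Bst1, its relative, was at 0 in all 15 samples.

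Among 19 genes of magnesium handling, 18 passed the filter. Between beta and alpha cells 1 rose and 1 fell, between delta and alpha cells 2 fell, and between delta and beta cells 3 were higher and 2 lower. Over all genes tested, 2.84% rose and 4.82% fell, 1.48% fell, and 11.7% were higher and 2.99% lower in the same comparisons. The medians of the 18 log2 differences were 0.02, 0.16 and 0.10 in that order, beside -0.13, 0.13 and 0.30 over all genes tested. Slc41a2, a magnesium transporter, was highest in alpha cells at 14.3, 10.99, 25.96, 16.7 and 21.1 FPKM. It was lower in beta cells, at 2.09, 0.859, 0.335 and 3.08 FPKM, by a log2 difference of -2.94 (limma adjusted p = 0.000136), and in delta cells by a log2 difference of -1.53 (0.0120). Both calls held without any single sample, and no beta or delta sample reached the lowest alpha sample. Delta cells were in turn higher than beta cells by 1.41 (limma adjusted p = 0.0182), a call lost without beta 3.

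Nipal1, of the NIPA-like magnesium transporter family, was the gene of the list with the largest delta differences, at 0.248 to 1.62 FPKM with a median of 0.736, against 3.70 to 17.1 FPKM in alpha and 6.53 to 69.4 FPKM in beta samples. Its delta differences were -2.59 against alpha cells (limma adjusted p = 0.00350) and -3.74 against beta cells (0.000200). Magt1, which encodes a subunit of the oligosaccharyltransferase complex also linked to magnesium transport, was at 34.3, 189.5, 44.4 and 138.5 FPKM in beta samples and at 19.1 to 31.0 FPKM in alpha samples. Its beta to alpha difference was 1.67 (limma adjusted p = 0.0456), a call kept in only 4 of 15 fits that left out a sample, namely without beta 1, beta 3, delta 2 or delta 6. Its delta to beta difference of -1.68 (limma adjusted p = 0.0230) was lost without beta 2 or beta 4. Cnnm3 and Ptp4a3 were also higher in delta cells relative to beta cells, by 1.19 and 1.26 (limma adjusted p = 0.0342 and 0.0253), and both calls were lost without beta 1, 3 or 4, among other samples. The Cnnm3 call was also lost with no filter, size factors, quantile normalization and a replicate block.

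**Figure D5:**
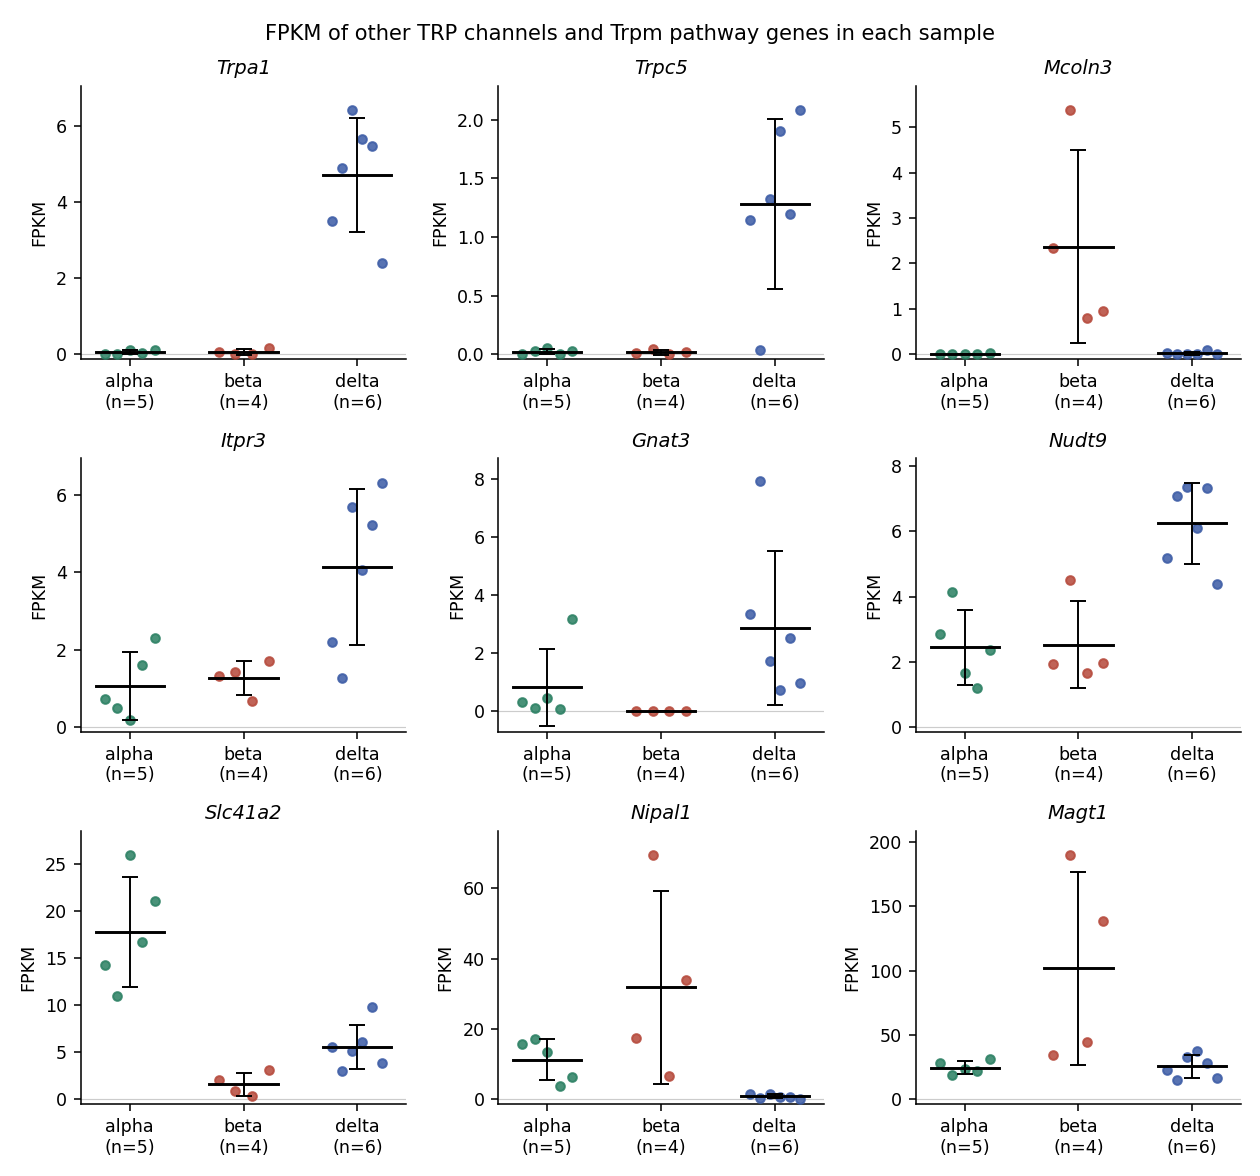
FPKM in each of the 15 samples of 3 other TRP channels (Trpa1, Trpc5, Mcoln3), 3 genes linked to TRPM5 or TRPM2 signalling (Itpr3, Gnat3, Nudt9) and 3 magnesium handling genes (Slc41a2, Nipal1, Magt1), grouped by cell type, each panel with its own scale. Points are samples, thick lines the mean and bars the SD. Trpa1 lies at 2.38 to 6.42 FPKM in delta samples and near 0 elsewhere, and Mcoln3 is above 0.7 FPKM in beta samples only.

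Markers of other cells were compared with the members' levels. Leukocyte markers summed to at most 2.81 FPKM in any sample and endothelial markers to at most 0.996 FPKM. Among beta samples the leukocyte sum was highest in beta 2 (2.79 FPKM), which also had the highest Trpm2 and Trpm4 levels of its group. Duct markers summed to 15.3 to 159.9 FPKM in alpha, 0.813 to 18.2 in beta and 8.21 to 84.2 in delta samples, and 1 of these 3, Sox9, was higher in delta cells, by 1.12 against alpha cells (limma adjusted p = 0.0182) and by 1.11 against beta cells (0.0174). Krt19 and Spp1 were not called and had delta to alpha differences of -1.30 (limma adjusted p = 0.0543) and -0.98 (0.578), Krt19 being at 0 in all 6 delta samples, so that the median of the 3 was -0.98. Of 4 mesenchymal markers 1 passed the filter, Col1a2, which fell by 1.53 in beta and by 1.52 in delta cells relative to alpha cells (limma adjusted p = 0.00677 and 0.00263). The list summed to 0.848 to 3.79 FPKM in alpha samples, to at most 0.00687 in beta and to at most 0.0576 in delta samples. The alpha sum was nearly all Col1a2: Col1a1 and Pdgfrb were at 0 in all 5 alpha samples, and Col3a1 did not exceed 0.00774 FPKM there. The part of leukocyte, duct or mesenchymal RNA in the members' levels was not tested. Acinar markers were highest in delta 4 (434 FPKM), where Trpm3, Trpm5 and Trpm7 lay inside the range of the other delta samples, Trpm1 and Trpm4 were the lowest of the delta group (0.0524 and 1.28 FPKM) and Trpm2 and Trpm6 the highest (0.660 and 0.0305 FPKM).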

How the data were processed

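RNA of sorted mouse islet cells was amplified (NuGEN Ovation V2), fragmented to about 200 bases and sequenced as single reads. According to the methods and the submitters' processing notes, the authors aligned reads to GRCm38 with TopHat (version 2.0.8 in the notes, a later one in the methods) and made the deposited FPKM values with Cufflinks 2.2.1. The annotation release and the use of strand are not given in the sources used here. The table holds no read counts, so the count test of the study could not be repeated and depth is not given. Low values showed steps of whole reads in 4 of 15 samples (44.2 to 61.9% of values under 3.5 reads within 0.1 of a whole number), implying about 7590000 to 30200000 mapped reads.

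Genes with a mean above 1 FPKM in at least 1 cell type (14405 of 38283) were fitted as log2(FPKM + 1) over all 15 samples with limma 3.58.1 in R 4.3.3 (lmFit, eBayes with trend), with Benjamini-Hochberg adjustment over all genes tested and calls at 0.05. The fit was tested on simulated data. Single members were compared with two-sided exact permutation tests (SciPy 1.17.1), unadjusted. Samples were grouped by their labels. Replicates are separate samples from pooled mice, and p-values measure the spread between these samples. Gene positions are from GENCODE M21, and sequences from RefSeq GRCm38.p6, in which 7 of 8 members had a promoter entry and both microRNA genes were found. Figures were drawn with matplotlib.

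The members, the gene lists and the markers were chosen with earlier results of these data known. The genes named were the 8 members, up to 3 called genes of largest difference from each of 4 lists (other TRP channels, the TRPM5 cascade, ADP-ribose metabolism and magnesium handling) and others where a count of 5 or fewer needed them, the microRNAs in Trpm introns, the 3 genes most correlated with each tested member, and cell markers. Alternatives covered pseudocount, filter, scaling, ribosomal protein set, replicate block, fits of the cell types compared and leaving out each sample. The labels do not say whether replicate numbers pair samples, and the main fit treated them as unpaired. Alpha and beta cells both came from Glu-Venus sorts, so that their samples may share mice. Deviations of samples with the same number correlated at 0.0761 on average, and some pairs were negative. Between alpha and beta samples of numbers 1 to 4 the correlations were -0.0395, 0.271, -0.152 and 0.0731. Pairs of different number were not examined, so that this check cannot exclude pairing.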

Additional observations from a re-analysis of the deposited data

Results flagged for a closer look

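In 20 groups of 4 to 6 samples, 4 held a sample whose gap to the others was large for the group's range. About 1 would be expected by chance for independent groups of normal values. The 4 cases all lie in alpha 1 or beta 2, and some of the FPKM values are near 0, so that 4 against 1 does not measure an excess. Trpm7 was at 34.5 FPKM in alpha 1, against 10.4 to 14.8 FPKM in the other alpha samples. Trpm3 was at 0.222 FPKM in alpha 1, against at most 0.0384 FPKM in the others. Trpm4 was at 1.78 FPKM in beta 2, against 0.290 to 0.437 FPKM in the others. Trpm1 was at 0.212 FPKM in beta 2, against 0.0614 to 0.0664 FPKM in the others. Beta 2 is the 1 beta sample of the high ribosomal protein set (74205 FPKM in ribosomal protein genes) and also had the highest Trpm5 and Trpm2 levels of its group. What sets these samples apart was not tested.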

How the results depend on the processing

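The direction of every Trpm5 and Trpm3 difference called by limma held under each alternative run, and the calls held in all but the fit of alpha and beta replicates 1 to 4 with a replicate block, where Trpm5 was 4.83 (adjusted p = 0.0734) and Trpm3 1.77 (0.101), with 0 genes of the table and 0 list genes called between beta and alpha cells. The log2 ratio of mean FPKM was 6.56 for Trpm5 and 5.67 for Trpm3 (beta to alpha), 5.88 and 1.27 for Trpm3 and Trpm4 (delta to alpha), and -5.61 and 1.40 for Trpm5 and Trpm4 (delta to beta). Without alpha 1, left out after seeing the data, the ratio of mean Trpm3 FPKM rose from 51.0 to 200.6 (beta to alpha) and from 58.8 to 231.6 (delta to alpha). Within the high ribosomal protein set, with 1 beta sample and no test, differences were 6.23 for Trpm5 and 0.55 for Trpm4 (beta to alpha), -1.65 for Trpm7 (delta to alpha), and -5.94 for Trpm5 and -2.68 for Trpm7 (delta to beta). In the low set Trpm7 differed by -0.23 (delta to alpha) and -0.93 (delta to beta). With that set as a covariate, Trpm4 differed by 0.86 between delta and alpha cells (adjusted p = 0.0479), and quantile normalization lowered its delta differences to 0.33 against alpha and 0.35 against beta cells (adjusted p = 0.556 and 0.450). The delta to beta difference of Trpm7 was -1.45 with no filter, with a replicate block and with only those cell types, in each case short of the threshold. Left-out samples moved it between -1.93 and -1.21, and that of Trpm4 between 0.66 and 1.05. The replicate block in the fit of all samples changed no other call of a member. In fits chosen after seeing the data, Trpm1 differed between delta and alpha cells by 0.23 without delta 2 (exact permutation p = 0.167) against 0.40 with it, and Trpm2 differed between delta and beta cells by 0.08 without beta 2 (exact permutation p = 0.643) against -0.16 with it. Genes called between beta and alpha cells numbered 1104, against 2072 with size factors, 1970 with quantile normalization, 520 with those cell types only and 698 to 1743 with a sample left out (lowest without beta 4, highest without beta 2). A filter at 5 FPKM gave 518 (delta to alpha), 1319 (delta to beta) and 1450 (F-test), against 981, 2114 and 2301. Called list genes were 3 (beta to alpha), 6 (delta to alpha) and 11 (delta to beta). Size factors gave 7 and quantile normalization 5 for the first, the 5 FPKM filter gave 2 and 4 for the others, and left-out samples gave 2 to 5 (5 without beta 2), 4 to 10 (10 without alpha 5) and 6 to 11 (7 without beta 1, 6 without beta 4). With a replicate block in the fit of all samples, the list gene calls lost were Magt1 (beta to alpha), Trpc5 and Itpr3 (delta to alpha), and Trpc5, Cnnm3 and Magt1 (delta to beta). Size factors moved the share of calls that were higher from 37.0 to 52.7% (beta to alpha), 78.3 to 67.9% (delta to alpha) and 79.6 to 51.5% (delta to beta), and quantile normalization to 47.6, 56.8 and 50.9%. The median difference of all genes moved from -0.13, 0.13 and 0.30 to 0, 0.00 and 0.02 with size factors. Depth limits what can be said of Trpm6, at an implied 0 to 4.87 reads in the 4 samples where steps of whole reads were seen, and of Trpm8, at 0.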
